A study of Mus musculus with 6 samples.

Results

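The genes described here are 9 genes of MHC class I antigen presentation, the route by which nearly every nucleated cell shows peptides from its own proteins to cytotoxic T cells. They were chosen by name, as the rows of the count table for H2-K1, H2-D1, B2m, Tap1, Tap2, Tapbp, Nlrc5, Psmb8 and Psmb9, and the rule itself uses no measured value, although earlier results of these data were known when the genes were picked. All 9 were found among the 25239 genes of the table. Enough counts for a test were present for 8 of them, and Nlrc5 was too low.

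RNA came from follicle-enriched thyroid organoids grown from G4 RosaLuc mouse embryonic stem cells, a clonally selected line, and collected at day 31. All libraries carried the same transgenes. Doxycycline (1 µg/ml, 5 days) drove Nkx2-1 and Pax8, and the bovine thyroglobulin promoter drove a Braf V637E fusion (BRAF V600E in human) to the ERT2 receptor domain, so that only Tg-expressing cells could make the oncoprotein. Every group received 8-Br-cAMP. The cAMP group had vehicle in place of 4-hydroxytamoxifen, the 4OHT group had 1 µM 4-hydroxytamoxifen for 5 days to activate the fusion protein, and the PD+LY group had 4-hydroxytamoxifen with the MEK inhibitor PD0325901 (250 nM) and the PI3K inhibitor LY204002 (5 µM) during the last 3 days. Each group held 2 libraries of pooled wells, and no source says that the libraries came from separate differentiations, so p-values measure the spread between these libraries, which may be technical. The methods give a longer exposure to 4-hydroxytamoxifen for the inhibitor experiments than for the 4OHT RNA samples, so the inhibitors and the days of 4-hydroxytamoxifen cannot be told apart in PD+LY against 4OHT.

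The libraries held 14898409 to 20637959 counts, and 1 count equalled 0.0486 to 0.0667 CPM, the usual depth-scaled count, here on the TMM-normalised library total. A gene was taken as above the floor in a library from 3 counts, which is 0.146 to 0.200 CPM and covers counting error only. The follicle preparation was not pure. Of 11 thyroid markers 10 were above the floor in every library, and so were 10 of 10 fibroblast, 10 of 10 pluripotent and 11 of 12 endothelial markers. In such bulk RNA, fewer cells of a type and less RNA per cell cannot be told apart.

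The class I molecule is a heavy chain, here H2-K or H2-D, bound to the light chain β2-microglobulin and to a short peptide. Peptides are cut by the proteasome, whose inducible subunits Psmb8 and Psmb9 take the place of constitutive ones, are pumped into the endoplasmic reticulum by the Tap1-Tap2 transporter and are loaded with the help of tapasin (Tapbp). The promoters of these genes are known for interferon response elements, NF-κB sites and the SXY module to which Nlrc5 is recruited. Pluripotent cells are known for low class I expression, thyroid follicular cells raise it under interferon gamma, and in several tumour cell lines MAPK activity is known to lower it.

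The members lie mostly together. In GENCODE M21 (GRCm38) 7 of the 9 are on chromosome 17, within or beside the MHC, while B2m is on chromosome 2 (122147686 to 122153083, plus strand) and Nlrc5 on chromosome 8 (94434356 to 94527272, plus strand). Psmb9 (34181987 to 34187764, minus strand), Tap1 (34187553 to 34197225, plus strand), Psmb8 (34197721 to 34201454, plus strand) and Tap2 (34203527 to 34216321, plus strand) follow each other within 34.3 kb. Tapbp (33915899 to 33929292, plus strand) and H2-K1 (33996017 to 34000347, minus strand) lie at lower coordinates and H2-D1 (35262730 to 35267499, plus strand) at higher ones.

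RefSeq promoter windows of 300 bases (GRCm38.p6, 250 before the start and 50 from it) were found for 7 of the 9 members. They were searched on both strands for an IRF core (AANNGAAA), the NF-κB consensus, the STAT element GAS (TTCNNNGAA), the X2 core of the SXY module (TGACG) and the CCAAT box (CCAAT). Shown here are the 200 bases before the start of both heavy chains and of the light chain, because these genes encode the chains of 1 complex, and the 225 bases between the starts of Psmb9 and Tap1, which are read in opposite directions. Capitals mark the motif matches, which may run on the other strand. The sequences are H2-K1 at chr17:34000348-34000547 (minus strand), H2-D1 at chr17:35262894-35263093 (plus strand), B2m at chr2:122147487-122147686 (plus strand) and the stretch from Psmb9 to Tap1 at chr17:34187331-34187555 (plus strand), each written 5′ to 3′.
H2-K1: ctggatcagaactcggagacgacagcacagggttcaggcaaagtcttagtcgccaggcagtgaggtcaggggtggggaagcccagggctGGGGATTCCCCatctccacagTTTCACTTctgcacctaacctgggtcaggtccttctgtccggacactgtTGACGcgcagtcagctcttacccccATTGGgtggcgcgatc
H2-D1: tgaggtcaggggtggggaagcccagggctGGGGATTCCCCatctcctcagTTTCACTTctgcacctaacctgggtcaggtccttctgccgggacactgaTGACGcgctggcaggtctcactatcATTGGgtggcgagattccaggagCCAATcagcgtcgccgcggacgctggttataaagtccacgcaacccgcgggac
B2m: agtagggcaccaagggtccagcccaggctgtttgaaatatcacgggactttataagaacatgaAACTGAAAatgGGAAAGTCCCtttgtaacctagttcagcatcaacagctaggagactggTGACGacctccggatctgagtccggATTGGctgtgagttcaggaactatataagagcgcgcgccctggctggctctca
Psmb9 to Tap1: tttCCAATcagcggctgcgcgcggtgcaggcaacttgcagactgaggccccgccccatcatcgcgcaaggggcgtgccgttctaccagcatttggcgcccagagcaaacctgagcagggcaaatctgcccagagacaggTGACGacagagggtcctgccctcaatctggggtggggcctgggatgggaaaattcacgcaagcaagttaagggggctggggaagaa

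H2-K1, H2-D1 and B2m each held an IRF core, an NF-κB match, an X2 core and a CCAAT box. In the heavy chain genes the NF-κB match came before the IRF core, and in B2m the order was the other way round. From the NF-κB match onwards, 98 of 111 bases (88.3%) were identical between H2-K1 and H2-D1 when lined up without gaps. Tap1 and Psmb9 share 275 bases of their windows on opposite strands, and there the X2 core and the CCAAT box were the only kinds found. Psmb8 held a GAS and none of the other motifs, and Tapbp held CCAAT boxes alone. Such short motifs are frequent: among 32851 RefSeq promoter windows, 23.92% held an IRF core, 8.46% an NF-κB match, 8.3% a GAS, 20.81% an X2 core and 37.41% a CCAAT box. A match describes these letters and is not evidence of binding.

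**Figure D1:**
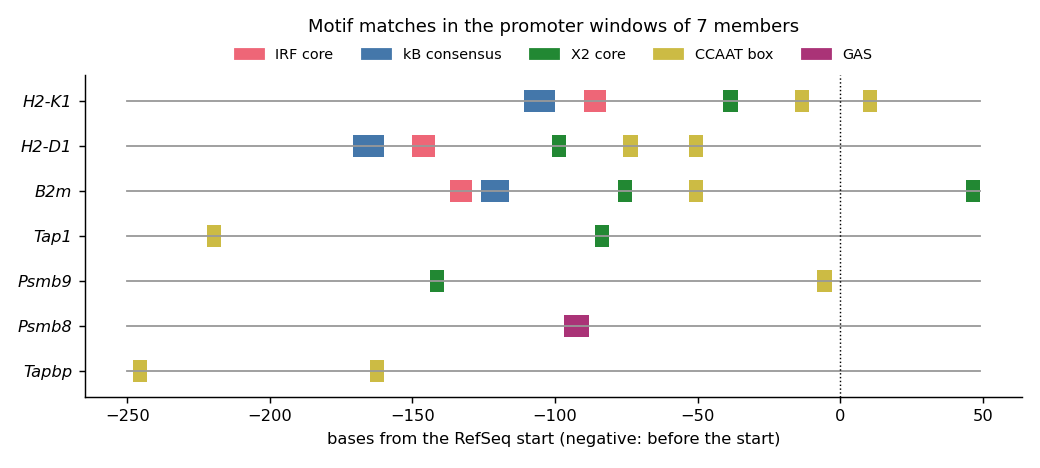
Motif matches in the promoter windows of 7 members, drawn by distance in bases from the RefSeq start (dotted line). The windows of H2-K1, H2-D1 and B2m hold 4 kinds of motif each, Tap1 and Psmb9 hold 2, and Psmb8 and Tapbp hold 1.

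Levels differed widely between the members. Per kilobase of exon, and as a mean over the 6 libraries, B2m stood at 74.1 CPM, followed by H2-K1 at 24.5, Tapbp at 22.4, H2-D1 at 4.53, Tap1 at 2.06, Tap2 at 1.83, Psmb8 at 1.24, Psmb9 at 0.719 and Nlrc5 at 0.0309. Among 15018 tested genes with a length these levels were above 96.2% of genes for B2m and above 85.3% for H2-K1, but above no more than 47.7% for H2-D1 and 18.3% for Psmb9. H2-K1 and Tapbp were neighbours whose order turned between groups: H2-K1 was higher in cAMP and 4OHT, and Tapbp in PD+LY. In cAMP their order depends on the exon lengths, since H2-K1 had 1055 and 1523 counts there and Tapbp 1087 and 1513. On this scale Tap1 and Tap2 also changed places in PD+LY, where Tap1 fell under Tap2, an order that depends on the exon lengths. The exon length is the union of all annotated transcripts, so a gene with a long minor transcript has a level that is set too low on this scale.

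The comparison of 4OHT with cAMP asks what 4-hydroxytamoxifen did in organoids that carry the Braf V637E fusion. All 6 libraries carried the fusion, so its activation and other effects of the drug cannot be told apart. No member was called there, that is, none had a Benjamini-Hochberg adjusted p under 0.05 in the edgeR quasi-likelihood test. DESeq2 called 0 as well, and 2 members (H2-K1 and Tapbp) had an unadjusted p under 0.05. Of all 15256 tested genes 4.04% were called up and 4.35% down. The log2 fold changes of the 8 tested members were small, from -0.34 (Psmb8) to 0.35 (H2-K1), with 6 of 8 positive and a median of 0.23, against a median of -0.0021 over all tested genes.

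The inhibitors were given to all cells of the preparation, also to those without the oncoprotein. The comparison of PD+LY with 4OHT asks what MEK and PI3K inhibition did in this mixture, with Braf V637E active in Tg-expressing cells. In this comparison 5 of the 8 tested members fell and none rose: both heavy chain genes, Tap1 and both inducible proteasome subunits. Of all tested genes 12.1% were called down and 10.7% up. Tap1, Psmb8 and Psmb9 also passed the 2-fold threshold that defines a differentially expressed gene (DEG), which 4.90% of all tested genes did in the downward direction. The median log2 fold change of the members was -0.78, against 0.0077 over all tested genes. B2m, Tap2 and Tapbp were not called.

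In PD+LY against cAMP, which sets the inhibited organoids beside those without active Braf V637E, 2 of the 8 tested members fell, Tap1 and Psmb8, and none rose. Here 13.7% of all tested genes were called down and 12.1% up. Psmb8 was the only member past 2-fold, a class that held 6.24% of tested genes in that direction. Without the filter on low counts 4 members fell and 1, Tapbp, rose. That setting called 4563 of 19653 genes in all, against 3925 of 15256 with the filter. In the filtered fit the median over the members was -0.44. These comparisons share libraries with each other, so they are not independent, and the values of each are given side by side below.

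**Figure D2:**
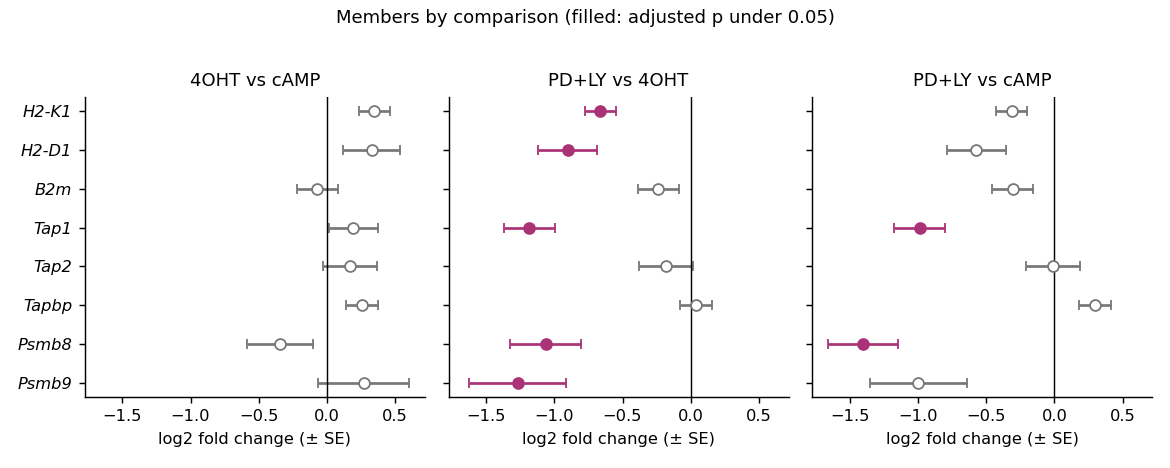
Log2 fold change ± SE of the 8 tested members in each comparison (edgeR, 6 libraries in 1 fit). Filled points have an adjusted p under 0.05: 0 in 4OHT vs cAMP, 5 in PD+LY vs 4OHT and 2 in PD+LY vs cAMP.

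H2-K1 encodes the classical heavy chain H2-K. It stood at 66.3 and 74.2 CPM in the cAMP libraries, 84.0 and 95 in 4OHT, and 53.2 and 59.9 in PD+LY. No group overlapped another, with 4OHT the highest and PD+LY the lowest. PD+LY was 1.58-fold lower than 4OHT (log2 fold change -0.66, SE 0.12, edgeR adjusted p = 0.00186), and the gene stayed called in every alternative fit. Against cAMP, the changes of 0.35 in 4OHT (SE 0.11, edgeR adjusted p = 0.0848) and -0.31 in PD+LY (SE 0.12, edgeR adjusted p = 0.0652) missed the threshold. The first of these was called without PD+LY replicate 1 (edgeR adjusted p = 0.0289) or replicate 2 (0.0307), which leave its size at 0.35 and change the shared estimate of the spread.

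H2-D1, the other classical heavy chain, had 209 and 223 counts in cAMP, 217 and 284 in 4OHT, and 192 and 130 in PD+LY. That is 13.1 and 10.9 CPM in cAMP, 14.5 and 15.6 in 4OHT, and 9.78 and 6.32 in PD+LY, with no overlap between groups. The libraries of PD+LY lay farther apart than those of the other groups. The fall from 4OHT to PD+LY was 1.87-fold (log2 fold change -0.90, SE 0.21, edgeR adjusted p = 0.0109). It was no longer called without 4OHT replicate 1 (-0.95, edgeR adjusted p = 0.0501) or without 4OHT replicate 2 (-0.84, edgeR adjusted p = 0.0943). Changes against cAMP were 0.33 in 4OHT (SE 0.21, edgeR adjusted p = 0.375) and -0.57 in PD+LY (SE 0.22, edgeR adjusted p = 0.0707), and the second was called without PD+LY replicate 1 (-0.92, edgeR adjusted p = 0.0069).

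Sequence shared with relatives can blur these values. Of the 100-base windows of H2-K1 transcripts, 0.957% occur also in another annotated gene, and of those of H2-D1 3.59%. H2-K1 shares them with H2-Q10, H2-Q5 and H2-Q7, and H2-D1 with H2-Q1 and H2-T23 among others, which are non-classical class I genes.

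B2m encodes the light chain that all class I heavy chains need. It stood at 68.7 and 69.6 CPM in cAMP, 68.0 and 64.0 in 4OHT, and 66.3 and 45.6 in PD+LY. PD+LY replicate 1 lay inside the range of the 4OHT libraries and replicate 2 far below every other library. The change in PD+LY against 4OHT, -0.24 (SE 0.15, edgeR adjusted p = 0.277), was decided by that library: without PD+LY replicate 2 it was 0.01 and without replicate 1 it was -0.53 (edgeR adjusted p = 0.00553). Against cAMP the change was -0.31 (edgeR adjusted p = 0.157), and without PD+LY replicate 1 it was -0.60 (edgeR adjusted p = 0.00185). From cAMP to 4OHT it was -0.07 (SE 0.15, edgeR adjusted p = 0.825).

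The ratio of heavy chain to light chain RNA was taken within each library, where no scaling enters. H2-K1 counts per kilobase were 28.3% and 31.2% of those of B2m in cAMP, 36.2% and 43.4% in 4OHT, and 23.5% and 38.4% in PD+LY. The 4OHT libraries were both above those of cAMP, while PD+LY overlapped both. H2-D1 was at 6.38% and 5.20% of B2m in cAMP, 7.10% and 8.12% in 4OHT, and 4.92% and 4.62% in PD+LY, with no overlap between any groups. The difference of the log2 ratio of H2-D1 to B2m from cAMP to 4OHT was 0.40, and from 4OHT to PD+LY it was -0.67. With 2 libraries against 2, a two-sided exact permutation test gives p = 0.3333 for such a separation, the smallest this design allows.

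**Figure D3:**
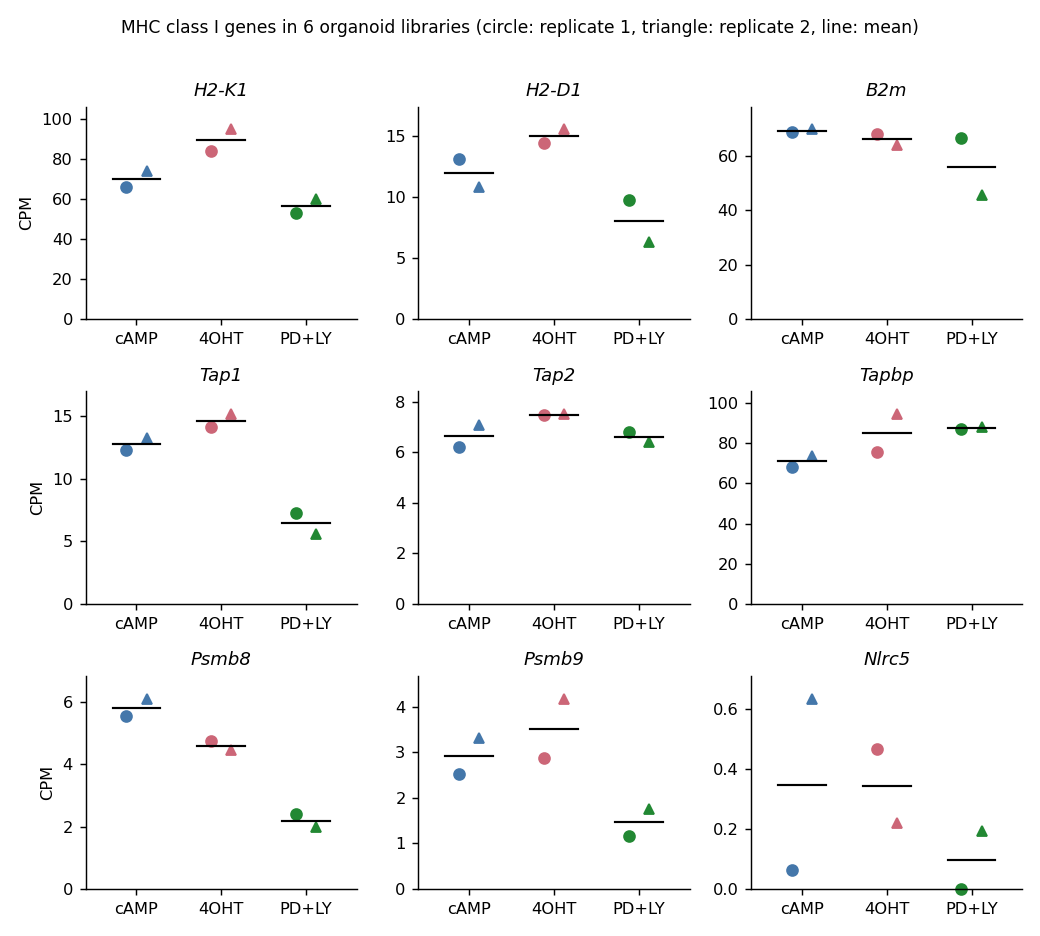
CPM of each member in the 6 libraries by group, with the mean of 2 as a line and a linear axis from 0 in each panel. H2-K1, H2-D1, Tap1, Psmb8 and Psmb9 were lowest in PD+LY, Tapbp was not, and B2m in PD+LY split between 66.3 and 45.6 CPM.

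Tap1, a subunit of the peptide transporter, was at 12.3 and 13.3 CPM in cAMP, 14.1 and 15.1 in 4OHT, and 7.28 and 5.59 in PD+LY. The PD+LY libraries lay far below all others. PD+LY was 2.27-fold lower than 4OHT (log2 fold change -1.18, SE 0.19, edgeR adjusted p = 0.00101) and 1.98-fold lower than cAMP (-0.99, SE 0.19, edgeR adjusted p = 0.00245). The fall from 4OHT stayed called in every alternative fit. From cAMP to 4OHT it changed by 0.19 (SE 0.18, edgeR adjusted p = 0.555).

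Tap2, its partner in the transporter, stood at 6.22 and 7.06 CPM in cAMP, 7.47 and 7.51 in 4OHT, and 6.82 and 6.42 in PD+LY. All libraries lay in a narrow range, and the cAMP libraries spanned those of PD+LY. The change in PD+LY against 4OHT was -0.18 (SE 0.20, edgeR adjusted p = 0.551) and in 4OHT against cAMP 0.17 (SE 0.20, edgeR adjusted p = 0.655). Against cAMP, PD+LY differed by -0.01 (SE 0.20, edgeR adjusted p = 0.98). Other genes on the opposite strand overlap 18.5% of the exon bases of Tap2, and reads from them cannot be told apart by counting without strand.

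The Tap1 to Tap2 ratio was looked at after these values had been seen, and is given as a description. Per kilobase, Tap1 stood at 136% and 130% of Tap2 in cAMP, 130% and 139% in 4OHT, and 73.7% and 60.2% in PD+LY. The ratio was thus lower in both PD+LY libraries than in any cAMP or 4OHT library. Which gene stands higher depends on the exon lengths used: in PD+LY, Tap1 had 143 and 115 counts and Tap2 134 and 132.

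Tapbp encodes tapasin, which holds the empty class I molecule at the transporter. It was at 68.3 and 73.7 CPM in cAMP, 75.6 and 94.5 in 4OHT, and 87.2 and 87.8 in PD+LY. Its PD+LY libraries were not low, and both lay between the 4OHT libraries and above cAMP. The change in PD+LY against 4OHT was 0.04 (SE 0.12, edgeR adjusted p = 0.838), and it turned to -0.11 without 4OHT replicate 1. Against cAMP it was 0.26 in 4OHT (SE 0.12, edgeR adjusted p = 0.205) and 0.30 in PD+LY (SE 0.12, edgeR adjusted p = 0.0814). Neighbouring genes overlap 29.0% of its exon bases.

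Psmb8 encodes the inducible subunit β5i, which replaces Psmb5. Its libraries stood at 5.53 and 6.09 CPM in cAMP, 4.73 and 4.44 in 4OHT, and 2.39 and 1.99 in PD+LY. It was the only member whose groups fell in steps from cAMP to 4OHT to PD+LY without overlap. The step from cAMP to 4OHT was -0.34 (SE 0.24) and not called (edgeR adjusted p = 0.426). PD+LY was 2.09-fold lower than 4OHT (log2 fold change -1.06, SE 0.26, edgeR adjusted p = 0.0127) and 2.65-fold lower than cAMP (-1.41, SE 0.26, edgeR adjusted p = 0.00191). The first of these falls was not called without 4OHT replicate 1 (-1.01, edgeR adjusted p = 0.0772) or 4OHT replicate 2 (-1.11, edgeR adjusted p = 0.0708). A gene on the opposite strand overlaps 14.7% of its exon bases.

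Psmb9 encodes β1i, which replaces Psmb6, and had the lowest counts of the tested members, 23 to 76 per library. It was at 2.52 and 3.31 CPM in cAMP, 2.87 and 4.17 in 4OHT, and 1.17 and 1.75 in PD+LY. The cAMP and 4OHT libraries overlapped, and those of PD+LY lay below both. PD+LY was 2.41-fold lower than 4OHT (log2 fold change -1.27, SE 0.36, edgeR adjusted p = 0.0237). This call was lost without 4OHT replicate 2 (-0.96, edgeR adjusted p = 0.222) and without PD+LY replicate 1 (-1.01, edgeR adjusted p = 0.0972). Against cAMP the change in PD+LY was -0.998 (SE 0.36, edgeR adjusted p = 0.06), called without PD+LY replicate 2 (-1.32, edgeR adjusted p = 0.0481). In 4OHT against cAMP the change was 0.27 (SE 0.33, edgeR adjusted p = 0.675), and it turned to -0.03 without 4OHT replicate 2. Exons of Psmb9 and Tap1 overlap by 212 bases on opposite strands, 5.79% of Psmb9 and 3.87% of Tap1.

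The inducible subunits were then set against the constitutive subunits they replace, per kilobase of exon within each library. Exon length, the union of all annotated transcripts, was 3.381 kb for Psmb8 against 0.899 for Psmb5 and 3.66 for Psmb9 against 1.872 for Psmb6. The size of the percentages depends on these lengths, and differences of the log2 ratio between groups do not. Psmb8 was at 1.64% and 1.53% of Psmb5 in cAMP, 0.993% and 1.13% in 4OHT, and 0.576% and 0.388% in PD+LY. The groups did not overlap, and the log2 ratio differed by -0.58 in 4OHT against cAMP and by -1.16 in PD+LY against 4OHT. Psmb9 was at 0.585% and 0.721% of Psmb6 in cAMP, 0.633% and 0.895% in 4OHT, and 0.280% and 0.361% in PD+LY. Here cAMP and 4OHT overlapped, with PD+LY below both by a log2 ratio of -1.24 against 4OHT and -1.03 against cAMP.

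The third inducible subunit, Psmb10 (β2i), was not called in any comparison. It was at 8.55% and 14.5% of Psmb7 in cAMP, 9.46% and 10.6% in 4OHT, and 9.56% and 11.1% in PD+LY, so that the cAMP libraries enclosed all others. Its log2 fold change in PD+LY against 4OHT was -0.07 (SE 0.23, edgeR adjusted p = 0.866). None of the 14 constitutive core subunits was called in any comparison by edgeR or DESeq2, 2 had an unadjusted p under 0.05 in PD+LY against cAMP and 0 in the others, and their median in PD+LY against 4OHT was 0.01. Psmb5 changed by 0.09, Psmb6 by -0.02 and Psmb7 by -0.11 there. For the ratios that separate the groups the exact permutation p was again 0.3333.

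**Figure D4:**
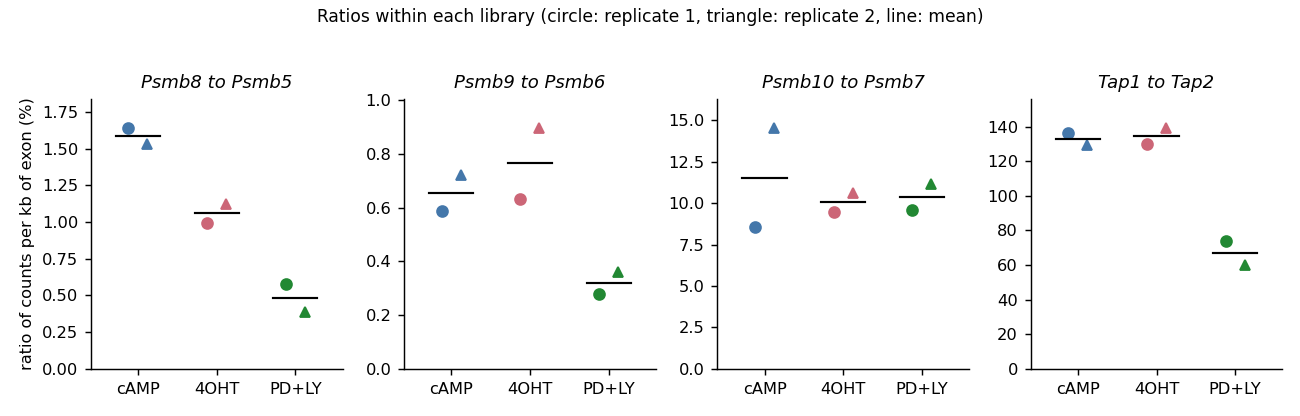
Ratios of counts per kilobase of exon, in percent, in each of the 6 libraries by group, on linear axes from 0 with the mean of 2 as a line. Psmb8 to Psmb5, Psmb9 to Psmb6 and Tap1 to Tap2 were lowest in PD+LY, and Psmb10 to Psmb7 was not.

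Nlrc5, the transactivator of class I genes, was near the limit of detection. It had 1 and 13 counts in cAMP, 7 and 4 in 4OHT, and 0 and 4 in PD+LY. The cAMP libraries alone spanned nearly the whole range. Without the filter on low counts no change was called, with an adjusted p of 0.382 or more in edgeR, and a difference between groups was not detectable at this depth.

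Other genes of peptide supply and loading were called about as often as the background of 12.1% down and 10.7% up in PD+LY against 4OHT. Of 16 tested 3 fell and 1 rose, with a median of 0.00. Those that fell were the endoplasmic reticulum chaperones Hspa5 (-0.49) and Calr (-0.32), and Ggt1 (-1.43, SE 0.22, edgeR adjusted p = 0.000893). Ggt1, a gamma-glutamyl transferase, stood on the list but is not a gene of peptide supply or loading. Uggt1, the glucosyltransferase that sends misfolded glycoproteins back to calreticulin, rose by 0.31. Erap1, the peptidase that trims peptides in the endoplasmic reticulum, had a log2 fold change of 0.68 (SE 0.23, edgeR adjusted p = 0.0525), and the proteasome activators Psme1 and Psme2 had 0.25 and 0.12. None of the 16 was called in 4OHT against cAMP by edgeR or DESeq2, and 4 had an unadjusted p under 0.05.

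The non-classical class I genes split. Of 26 such genes 18 were tested and 4 had no count in any library. Relative to 4OHT, PD+LY brought 6 of them down and 1 up, with a median of -0.32, and DESeq2 called 4 in all where edgeR called 7. H2-K2 stood at 2.53 and 4.28 CPM in 4OHT and at 0.916 and 0.729 in PD+LY (log2 fold change -2.06, SE 0.38, edgeR adjusted p = 0.00299). H2-Q4 went from 10.4 and 12.9 CPM to 4.84 and 7.0 (-0.98, SE 0.22, edgeR adjusted p = 0.00856). H2-Q10 (-1.87) and H2-Q2 (-1.18) fell too, from levels under 4 CPM. These are close relatives of the heavy chain genes, and counting could split reads between them.

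H2-T23, which encodes the Qa-1 ligand of the NKG2A receptor on natural killer cells, was highest in 4OHT, like H2-K1. It was at 3.52 and 3.07 CPM in cAMP, 5.93 and 7.84 in 4OHT, and 2.39 and 3.01 in PD+LY. It rose in 4OHT against cAMP (1.07, SE 0.26, edgeR adjusted p = 0.0277) and fell in PD+LY against 4OHT (-1.35, SE 0.27, edgeR adjusted p = 0.004). H2-Bl also rose in 4OHT, from 8.36 and 8.52 to 21.8 and 21.4 CPM (1.35, SE 0.19, edgeR adjusted p = 0.00131), but stayed at 20.7 and 29.7 in PD+LY. These were the only 2 of the 18 tested that were called in 4OHT against cAMP, and none fell. Between PD+LY and cAMP 2 rose and 4 fell.

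Interferon gamma (Ifng) and interferon beta (Ifnb1), the main inducers of the class I pathway, had 0 counts in all 6 libraries, which allows up to 3 counts or 0.146 to 0.200 CPM in each. Their receptors and signalling genes were present. Ifngr1 had 24.2 and 22.7 CPM in cAMP, 19.5 and 18.9 in 4OHT, and 15.3 and 14.8 in PD+LY, a fall that passed the test between the outer groups, PD+LY against cAMP (-0.64, SE 0.14, edgeR adjusted p = 0.00534), and in neither of the other comparisons. Ifngr2, Jak1 and Jak2 were not called in any comparison.

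Irf1, an interferon-induced activator of class I, Tap1 and Psmb9 promoters, had the opposite order to H2-K1 in cAMP and 4OHT. It stood at 64.8 and 69.1 CPM in cAMP, 40.9 and 45.5 in 4OHT, and 53.1 and 60.7 in PD+LY. It fell in 4OHT against cAMP (-0.63, SE 0.12, edgeR adjusted p = 0.00787), where H2-K1 was at 0.35, and rose in PD+LY against 4OHT (0.40, SE 0.12, edgeR adjusted p = 0.0311), where 5 members fell. Irf8 went the other way, from 3.08 and 3.17 CPM in cAMP to 6.47 and 7.24 in 4OHT and 2.65 and 2.87 in PD+LY. Both of these Irf8 steps passed the test (1.13 and -1.31, edgeR adjusted p = 0.0154 and 0.00289). The part of Irf1 and Irf8 in the values of the members was not tested.

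Of 21 tested interferon ligands, receptors and signalling genes 4 fell and 1 rose in PD+LY against 4OHT, with a median of -0.25. Socs3, a feedback inhibitor of cytokine receptors, fell from 153 and 167 to 52.3 and 56.1 CPM (-1.56, SE 0.10, edgeR adjusted p = 2.55e-06), and Stat2 (-0.61) and Stat3 (-0.43) fell less. In 4OHT against cAMP 4 rose, namely Irf8, Socs3 (1.04), Ifnar2 (0.53) and Stat3 (0.48), and 1 fell. Set against cAMP, 3 fell in PD+LY and 0 rose, among them Socs3 (-0.52) and Stat2 (-0.33).

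Interferon response genes outside antigen presentation did not move as a block. Under the inhibitors, relative to 4OHT, 8 of 41 tested rose and 5 fell, with a positive median of 0.29 where the members had -0.78. Cd274, the checkpoint ligand PD-L1, was among those that fell, from 9.0 and 9.76 to 3.16 and 2.24 CPM (-1.80, SE 0.25, edgeR adjusted p = 0.000433). Oas3, which makes the activator of RNase L, also fell (-1.79), while the interferon-induced GTPase Iigp1 rose from 0.600 and 0.219 to 2.70 and 1.51 CPM (2.38, SE 0.64, edgeR adjusted p = 0.0194). Relative to cAMP, 4OHT had 3 down (Igtp, Oasl2 and Ddx58) and 0 up, and between PD+LY and cAMP 4 rose and 6 fell.

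The transcription factors of the class I promoter were all tested, listed together with the chromatin-silencing Polycomb subunits Ezh2, Eed and Suz12. Of 15, Nfkb2 (-0.57, SE 0.14, edgeR adjusted p = 0.0109) and Nfkb1 (-0.39, SE 0.11, edgeR adjusted p = 0.0289) fell in PD+LY against 4OHT, and the CCAAT-binding subunit Nfyc rose (0.89, SE 0.12, edgeR adjusted p = 0.000496). Nfkb1 was at 41.1 and 41.7 CPM in 4OHT and at 31 and 32 in PD+LY. None was called in 4OHT against cAMP by edgeR, where 2 had an unadjusted p under 0.05, and DESeq2 called 1. Relative to cAMP, Nfyc (0.65) and Relb (0.78) rose in PD+LY and 0 fell.

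MHC class II genes, whose products present peptides on professional antigen-presenting cells and which Psmb9, Tap1, Psmb8 and Tap2 neighbour on the chromosome, fell in part. Of 8 tested 4 fell and 0 rose in PD+LY against 4OHT, with a median of -0.42. H2-Eb1 went from 26.8 and 26.8 to 6.36 and 10.4 CPM (-1.67, SE 0.20, edgeR adjusted p = 0.000206), H2-Ab1 from 20.1 and 22.9 to 12.4 and 9.87 (-0.95), and the invariant chain Cd74 from 13.0 and 12.2 to 6.16 and 6.95 (-0.94). The summed level of all 11 class II genes was 65.6 to 67.9 CPM in cAMP, 77.0 to 79.6 in 4OHT and 38.2 to 41.8 in PD+LY. H2-Aa was the only class II gene called in 4OHT against cAMP, and it fell, from 3.71 and 2.92 to 1.13 and 1.15 CPM (-1.52, SE 0.36, edgeR adjusted p = 0.0239), with 2.55 and 1.85 CPM in PD+LY. Ciita, the class II transactivator, had 3 to 12 counts per library.

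Markers of leukocytes also fell in PD+LY against 4OHT. Of 15 markers 8 were tested, and in that comparison 4 fell and 0 rose, with a median of -0.87. In 4OHT against cAMP the members had a median of 0.23 and the leukocyte markers -0.03, with 1 marker down and 0 up. The summed level of the 15 markers was 97.5 to 102 CPM in cAMP, 88.4 to 98.4 in 4OHT and 50.4 to 50.9 in PD+LY. Most of it was Cd68, a lysosomal protein of macrophages (56.2 and 61.2 CPM in 4OHT, 30.8 and 32.6 in PD+LY), and Laptm5 (25.3 and 25.4, then 15.3 and 13.0). The defining markers Ptprc (CD45) and Adgre1 (F4/80) had 0 counts in all 6 libraries, 7 of 15 were above the floor in every library, and Cd3e had 15 to 55 counts, highest in 4OHT replicate 2. Which cells the RNA of these markers came from, and the part of such cells in the fall of the members, was not tested.

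Other cell markers shifted as well. Under the inhibitors, relative to 4OHT, 8 of 10 tested epithelial markers fell and 1 rose, with a median of -0.83. Their summed level was 929 to 1051 CPM in 4OHT and 831 to 873 in PD+LY. Of 11 endothelial markers 3 fell and 0 rose, with a median of -0.23 (sum 310 to 315 CPM, then 260 to 268). Much of that sum was Pecam1, at 171 and 168 CPM in 4OHT and 148 and 155 in PD+LY. Fibroblast markers rose for 5 of 10 and fell for 2, and their sum went from 2253 to 2373 CPM up to 4123 to 4855. Thyroid markers rose for 6 of 10 with 0 falling, and their sum, 574 to 767 CPM in 4OHT, was 999 to 1998 in PD+LY. Of 10 pluripotent markers 2 rose and 3 fell. Their sum was above that of the thyroid markers in every library. It was 4013 to 4102 CPM in cAMP, 4230 to 4403 in 4OHT and 4217 to 4528 in PD+LY. Markers differed in the other comparisons too. In 4OHT against cAMP 4 endothelial markers fell, namely Tie1 (-3.46), Kdr (-2.31), Cldn5 (-1.98) and Cdh5 (-1.47), and Pecam1 rose (0.36). There 4 epithelial markers fell and 1 rose, 4 fibroblast markers rose and 0 fell, and 3 thyroid markers fell and 0 rose. In PD+LY against cAMP 7 endothelial markers fell and 0 rose. The part of these shifts in the values of the members was not tested.

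**Figure D5:**
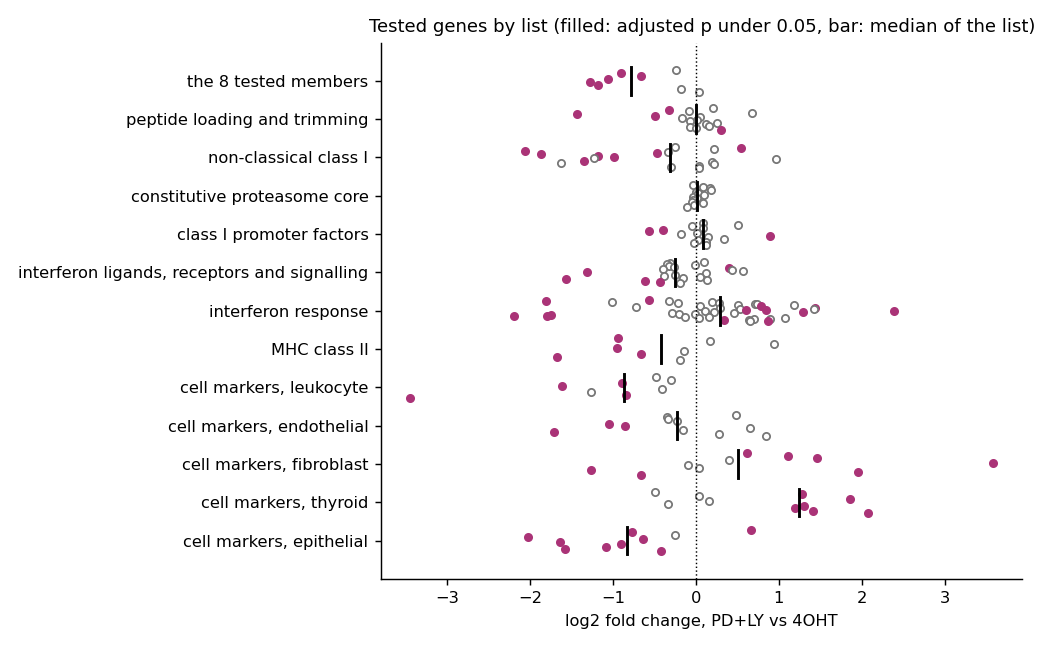
Log2 fold change of each tested gene in PD+LY vs 4OHT, by gene list, with filled points for an adjusted p under 0.05 and a bar at the list's median. The members have a median of -0.78 with 5 of 8 filled, the constitutive proteasome core has 0.01 with 0 of 14, and the interferon response genes have 0.29 with filled points on both sides.

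Over the 6 libraries some members followed the rest closely and Tapbp did not. The Pearson correlation of each member's log2 CPM with the mean profile of the other tested members, given as a description because the libraries share 3 groups and a scaling, was 0.94 for Tap1, 0.87 for H2-K1 and for H2-D1, 0.80 for Psmb9, 0.70 for Psmb8, 0.69 for Tap2 and 0.55 for B2m. For Tapbp it was -0.25. Among all other tested genes, the 5 whose profiles were most like the mean profile of the 8 members over the 6 libraries were Ddah1 (r = 0.995), Herpud1 (0.995), Rcn3 (0.993), Esyt3 (0.993) and Sccpdh (0.992). With 15256 genes tested and only 6 libraries, the top of such a ranking is high by selection, and it too is a description. Herpud1, for example, stood at 25.3 and 29.4 CPM in cAMP, 32.4 and 39.9 in 4OHT, and 18.6 and 16.1 in PD+LY, and the order of its groups was that of H2-K1.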

How the data were processed

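Bulk RNA was sequenced from stranded mRNA libraries of 6 organoid samples, 2 per group. The authors trimmed reads with Trimmomatic, mapped them to mm10 with HISAT2 and counted them per gene with HTSeq in unstranded mode, and deposited the counts, a row per gene symbol, without normalisation. Because strand was ignored, reads of overlapping genes on opposite strands cannot be separated.

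Genes were filtered with filterByExpr (minimum count 10, minimum total 15) in edgeR 4.0.16 (R 4.3.3), which kept 15256, and normalised by TMM. Quasi-likelihood tests used 1 fit of the 3 groups over 6 libraries, with Benjamini-Hochberg adjustment over all tested genes and the study's thresholds (adjusted p under 0.05, and 2-fold for a DEG). CPM use TMM-normalised totals, and SE belongs to the log2 fold change. Positions, exon lengths and overlaps come from GENCODE M21, promoters from RefSeq (GRCm38.p6). The members and gene lists were chosen with earlier results of these data known. Named besides the members are up to 5 called genes per list and comparison with at least 10 counts in some library, by size of change, and a fixed set of signalling and proteasome genes, of which 1 is not reported here. Ciita, Cd3e, Ptprc, Adgre1 and Ifnb1 were named after their values were seen. Replicate numbers were not taken as pairs. Alternatives were DESeq2 1.42.0, RLE size factors, no filter, 10 counts in every library, a replicate block, fits of only the 2 groups in question, and leaving out each library.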

Additional observations from a re-analysis of the deposited data

How the results depend on the processing

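With 2 libraries per group every call rests on few values. In PD+LY against 4OHT the 5 called members stayed at 5 in DESeq2, with RLE size factors, without a filter, with 10 counts in every library, in the fit of only these groups and with the replicate block. Leaving out a library gave 2 to 5 members called (3 without 4OHT replicate 1 and 2 without 4OHT replicate 2), 1 to 3 of them DEGs (1 without 4OHT replicate 2), and 37 to 70 other list genes called against 70 (37 without 4OHT replicate 2). In 4OHT against cAMP 1 member (H2-K1) was called without a filter, in the fit of only the 2 groups and with the replicate block. Over all genes these settings called 2186 of 19653, 2307 of 14858 and 2373 of 15256, against 1280 of 15256 in the main fit. The other list genes called there, 31, became 51 without a filter and 49 with the replicate block, and 12 to 47 with a library left out. In PD+LY against cAMP the 2 called members became 5 without a filter, where 4563 of 19653 genes were called in all. They became 7 with the replicate block (6 down and 1 up, where 5057 of 15256 genes were called in all). The main fit of that comparison called 3925 of 15256. Its DEGs, 1, were 2 with 10 counts in every library and 1 to 2 with a library left out. Directions turned for some log2 fold changes with a library left out. In 4OHT against cAMP Psmb9 ranged from -0.028 (without 4OHT replicate 2) to 0.51. In PD+LY against 4OHT B2m ranged from -0.53 (without PD+LY replicate 1) to 0.0090 (without PD+LY replicate 2) and Tapbp from -0.11 (without 4OHT replicate 1) to 0.22. In PD+LY against cAMP Tap2 ranged from -0.094 to 0.10 (without cAMP replicate 2), and was 0.04 without PD+LY replicate 2. The cause of these moves was not tested. The labels do not say that equal replicate numbers pair libraries, and deviations of equal numbers correlated at 0.0718 (cAMP with 4OHT), 0.207 (cAMP with PD+LY) and 0.0586 (4OHT with PD+LY). Counts of 0 to 13 for Nlrc5 and 23 to 76 for Psmb9 limit what depth can show.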

Other observations

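Ratios within a library were also taken between members, after their values had been seen and with no test. Per kilobase, Tap1 stood at 11.9% and 11.9% of Tapbp in cAMP, 12.3% and 10.6% in 4OHT, and 5.53% and 4.22% in PD+LY, so the PD+LY libraries lay below all others. H2-D1 stood at 22.6% and 16.7% of H2-K1 in cAMP, 19.6% and 18.7% in 4OHT, and 20.9% and 12% in PD+LY, where the groups overlapped. Psmb9 stood at 42.0% and 50.2% of Psmb8 in cAMP, 56.0% and 86.7% in 4OHT, and 45.2% and 81.1% in PD+LY, again with overlap.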
